A study of Sus scrofa with 9 samples.

Results

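The small RNAs described here are the rows of a pig miRNA count table whose names hold mir-2887, mir-2904, mir-6240 or mir-6236, with any species prefix, hairpin arm or isomiR suffix. They made up 46 of the 1313 names in the table: 18 for mir-6236, 11 for mir-6240, 15 for mir-2904 and 2 for mir-2887. These names were selected on earlier results from the same libraries, in which many of them had been called higher in fertilised eggs than in oocytes or had come up in a screen for small RNAs of sperm origin. Their levels, their differences between the sample groups and the calls of a fit over the whole table are therefore given as a description, with no p for any name, and the only tests are those of 2 shares within a library.

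Small RNA was sequenced from 3 libraries each of MII oocytes, PN embryos and sperm, all 9 labelled as receiving no treatment. MII oocytes are eggs halted at metaphase of the second meiotic division; here they came from ovaries of postpubertal Long White gilts, were matured in vitro and were stripped of the surrounding cumulus cells with hyaluronidase. PN embryos are one-cell embryos with visible pronuclei, obtained by in vitro fertilisation of such oocytes with semen of Landrace boars, whereas the sequenced sperm was purified from fresh semen of adult Large White boars. The boars behind the embryos and behind the sperm libraries were thus of different breeds. RNA of oocytes and embryos was taken from large pools of cells, and nothing in the labels says that libraries of a group came from separate pools or animals, so the spread between them may be technical.

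A miRNA is cut from a hairpin precursor whose 5′ and 3′ arms can each give a mature strand of about the same size, and the mature strand guides a silencing complex to matching mRNAs. Reads of one arm often start or end a little apart or differ from the reference at a base, and such variants are called isomiRs. The mature oocyte and the one-cell embryo hardly transcribe their genome, so their RNA is mostly that stored during oocyte growth, to which the fertilising sperm adds its own small cargo. Libraries of small RNA also take up fragments of abundant longer RNAs such as ribosomal and transfer RNA. Which kind of RNA each of the 46 names stands for was not tested, as their sequences were not part of the files used, and no role in eggs or sperm is taken for granted.

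The prefixes mmu and bta are those used for mouse and cattle entries, so every one of the 46 names refers to a hairpin of another species. Names ending in -p5 or -p3 refer to the 2 arms, and the suffixes such as 1ss12CG or L-5R+4 mark variants in a notation that the sources used here do not define. Many of the names held identical counts. The 46 names filled 49 rows, since 3 names stood in more than one row, and these rows held only 22 distinct sets of counts. Of these, 5 sets were carried by several names each, 29 names in all, and 17 by a single name.

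The clearest case was a set of counts carried by 8 mir-6236 names, 7 of the 5′ arm (mmu-mir-6236-p5_1 to p5_7) and 1 of the 3′ arm (mmu-mir-6236-p3_3). A further 6 names of the 3′ arm shared a second set, named here after mmu-mir-6236-p3_1. For mir-2904, 7 names of both arms shared the set of bta-mir-2904-3-p5_1 and 5 names shared that of bta-mir-2904-3-p3_2, and for mir-6240 3 names shared that of mmu-mir-6240-p5_1. All 22 sets held only multiples of 0.5 and 13 of them held values ending in 0.5, so reads had been divided among names. Below, each distinct set is called a row and counted once. If its names hold separate parts of the divided reads, counting it once leaves reads out. The totals behind the levels below cover all listed rows, so such levels would then be too low.

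Levels are given as CPM, that is, counts per 1000000 counts of the same library over all rows. Library totals were 289183 to 381674 in MII oocytes, 422630 to 771001 in PN embryos and 1640492 to 2455102 in sperm, so depth and group cannot be told apart. Few low counts were listed, and a listed 0 was taken to allow up to 5 reads, which equals 13.1 to 17.3 CPM in MII oocytes, 6.49 to 11.8 CPM in PN embryos and 2.04 to 3.05 CPM in sperm. For a single row, folds against a group listed at 0 are lower bounds computed with 5 reads per library. Such floors and all intervals cover counting error only, since PCR copies were not told apart from independent molecules. The sperm markers miR-34c, miR-449a and miR-191 summed to 158309 to 162537 CPM in sperm and to at most 6521 CPM elsewhere. The oocyte and early embryo markers miR-371, miR-202, miR-205 and miR-21 summed to 537927 to 566057 CPM in oocytes and embryos against 23603 to 23930 CPM in sperm. In oocytes and embryos that sum was mostly miR-205, at means of 474025 and 454069 CPM. In sperm it was nearly all miR-21, at a mean of 23683 CPM, with miR-371 at 0 there.

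Summed over distinct rows, the names stood highest in PN embryos. In MII oocytes they summed to 836, 660 and 766 CPM in libraries 1 to 3, in PN embryos to 4332, 4571 and 4768 CPM and in sperm to 1478, 1691 and 1703 CPM. The 3 ranges did not overlap. These sums were 0.0660 to 0.0836% of the reads in oocytes, 0.433 to 0.477% in embryos and 0.148 to 0.170% in sperm. CPM is a share of each library, and in such bulk RNA fewer cells of a type and less RNA per cell cannot be told apart.

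Behind this sum, the 4 groups of names differed in how far the sample groups lay apart. With distinct rows counted once, all but mir-2887 had their highest mean in embryos and their lowest in oocytes. The mir-6236 rows, together, were nearly missing from oocytes, with 9.17, 0 and 0 CPM, and stood at 784, 648 and 737 CPM in embryos and at 358, 396 and 401 CPM in sperm. With oocyte sums of at most 5 reads set to 5 per library, embryos were 46.1-fold and sperm 24.5-fold above oocytes. Since a listed 0 in each of several rows allows up to 5 reads, these are not strict lower bounds. Whether sperm stood below embryos depended on how the names were summed, since with every listed name counted, repeats included, sperm was 2.47-fold above embryos rather than 1.88-fold below.

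With each distinct row counted once, the mir-6240 rows had the highest levels of all 4 groups of names, and an embryo peak. The lead in sperm rests on that counting. There the mmu-mir-6236-p5_1 counts filled 9 listed rows at a mean of 364 CPM each, and the mmu-mir-6240-p5_1 counts 4 at 558 CPM. They summed to 610, 515 and 638 CPM in oocytes, 3140, 3387 and 3433 CPM in embryos and 653, 663 and 696 CPM in sperm. The embryo mean, 3320 ± 158 CPM (SD, n = 3), was 5.65-fold above the oocyte mean of 588 ± 64.7 CPM and 4.95-fold above the sperm mean of 671 ± 22.6 CPM. Sperm and oocytes were 1.14-fold apart, and their ranges lay next to each other without overlap.

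The mir-2904 rows were lower and less even among oocytes, at 140, 51.8 and 76.1 CPM, and summed to 264, 365 and 402 CPM in embryos and 143, 212 and 210 CPM in sperm. The embryo mean of 343 ± 71.5 CPM was 3.84-fold above that of oocytes, 89.3 ± 45.7 CPM, and 1.82-fold above that of sperm, 188 ± 39.0 CPM. The lowest sperm library and the highest oocyte library were nearly level. The mir-2887 rows had sperm on top, unlike those of mir-6240 and mir-2904: 76.0, 93.6 and 51.9 CPM in oocytes, 144, 171 and 197 CPM in embryos and 324, 420 and 396 CPM in sperm. Their sperm mean of 380 ± 50.1 CPM was 2.22-fold above embryos and 5.15-fold above oocytes, and the 3 ranges did not overlap.

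**Figure D1:**
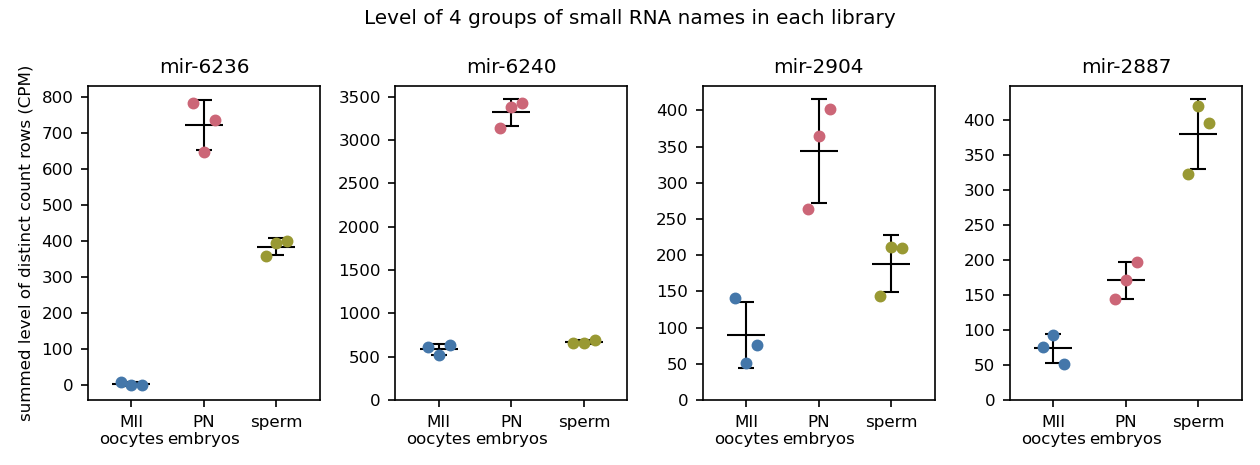
Summed level of the distinct rows of each group of names in CPM (vertical axis, a separate scale in each panel) for MII oocytes, PN embryos and sperm, with a point for each library and a line and bars for the mean ± SD (n = 3). The mir-6240 and mir-2904 rows peak in embryos, the mir-2887 rows peak in sperm at 324 to 420 CPM, and the mir-6236 rows are near 0 in oocytes, with embryos above sperm only when each distinct row is counted once or the library total is rescaled, not when all names are summed.

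The names were also compared one by one in an edgeR fit on the whole table, with a name called where its log2 fold change was at least 1 in size and its adjusted p (Benjamini-Hochberg over the 587 names tested) was below 0.05. The low-count filter removed 10 of the 46 names and left 36: the 10 were mmu-mir-6236-p5_1ss3CG, mmu-mir-6240-p5_1ss2GA, mmu-mir-6240-p3_1ss19GA, bta-mir-2904-3-p3_1ss19TA and 6 of the 7 names of the bta-mir-2904-3-p5_1 row. Names that shared counts entered the fit separately and are not independent of each other.

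In PN embryos against MII oocytes, 31 of the 36 were called higher and 0 lower, where over all names 11.2% were called higher and 1.70% lower. The 31 were 17 of 17 mir-6236 names, 6 of 9 mir-6240 names, 7 of 8 mir-2904 names and 1 of 2 mir-2887 names. The median log2 fold change was 3.81 over the 36 and 0.08 over all 587. Among the 22 rows, the listed values of 18 were above oocytes in embryos without overlap of the libraries, 4 overlapped and 0 were below. In 2 of the 18, mmu-mir-6236-p5_1ss3CG and mmu-mir-6240-p5_1ss2GA, the embryo level lay within what a listed 0 allows in oocytes, which leaves 16. Since the choice of names used this contrast, nothing is read from these counts.

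In sperm against MII oocytes, 23 of the 36 were called higher and 2 lower, where over all names 42.2% were called higher and 40.7% lower. The 23 were 15 mir-6236, 6 mir-2904 and 2 mir-2887 names, and the 2 were bta-mir-2904-3-p5_3 and mmu-miR-6240_L-2R-6. With names of identical counts merged into 1 feature, 8 of 20 were called higher, beside 230 of all 555, so the larger share of names rests on repeated counts. Counted by rows, the listed values of 9 of 22 were higher in sperm without overlap, 1 was lower and 12 overlapped. The share of all rows of the table without overlap was not computed, so nothing is read from these row counts. In 3 of the 9, mmu-mir-6236-p5_1ss5CG, mmu-mir-6240-p5_1ss2GA and bta-mir-2904-3-p3_2, the sperm level lay within what a listed 0 allows in oocytes, which leaves 6. The 23 names called higher include 6 names of these 3 rows, for which no difference was detectable at the oocyte depth. Among the rows left, mmu-mir-6236-p3_1 was barely past that limit, at least 1.09-fold above oocytes. The 23 went down to 12 without oocyte library 2, without oocyte library 3 or without sperm library 3, chiefly because the 6 names of the mmu-mir-6236-p3_1 row and the 5 of the bta-mir-2904-3-p3_2 row lost their call together.

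In sperm against PN embryos, 10 of the 36 were called higher and 25 lower, where over all names 38.8% were called higher and 47.4% lower. The 10 were the 8 names of the mmu-mir-6236-p5_1 row and both mir-2887 names, and the 1 name not called was bta-mir-2904-3-p5_1ss20TC. By rows, 16 of 22 were lower in sperm without overlap, 3 were higher and 3 overlapped. How many of all rows of the table were lower without overlap was not computed, so nothing is read from the 16. The 25 went down to 16 without embryo library 3, where the mmu-mir-6236-p3_1 names and 3 others lost their call.

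The table held 119 other names written in the same hairpin style, with -mir- and an arm suffix, of which 34 passed the filter. In embryos against oocytes 0 of these 34 were called by the edgeR fit, with a median log2 fold change of 0. In sperm against oocytes 23 of the 34 were called higher and 7 lower, and in sperm against embryos 23 higher and 9 lower. Of the 119, 2 were listed in every embryo library and in none of oocytes, against 19 of the 46 names described here. The 19 include the 8 names of the mmu-mir-6236-p5_1 row and the 5 of the bta-mir-2904-3-p3_2 row. The share over all names of the table was not computed. Only 9 of the 119 were listed in every oocyte library and 14 in every embryo library, so most had little to compare there. In every sperm library, where depth was greatest, 61 of the 119 were listed, and a name could pass the filter through sperm counts alone. The calls of the 34 in sperm thus follow in part from the filter, and nothing is read from them. The difference between the 2 lists in embryos is a description, since only one of them was chosen for it.

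**Figure D2:**
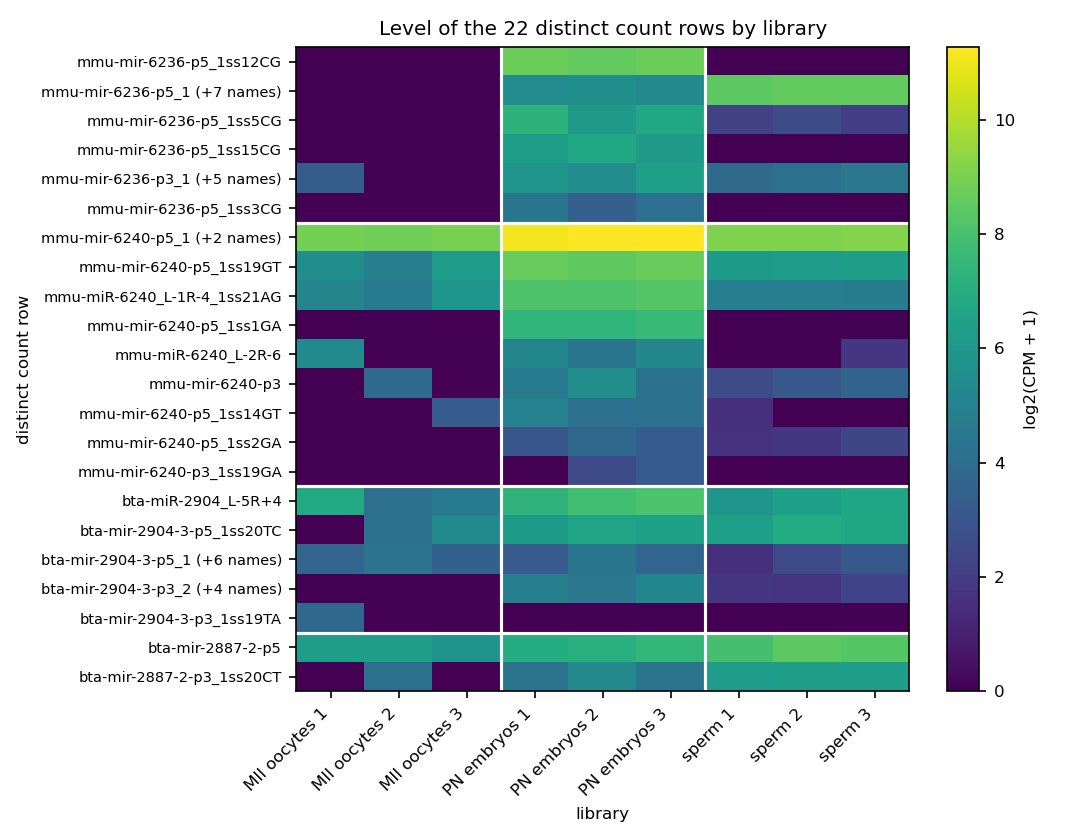
Level of each of the 22 distinct rows (vertical axis, named after 1 of its names with the number of further names in brackets) in each of the 9 libraries (horizontal axis), as log2(CPM + 1) by colour. White lines part the 3 sample groups and the 4 groups of names; 9 rows are listed at 0 in every oocyte library and 6 in every sperm library, while 20 are listed in every embryo library.

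Within mir-6236, embryos and sperm held different rows. The leading row in embryos was mmu-mir-6236-p5_1ss12CG, a variant name of the 5′ arm, with 431, 377 and 432 CPM in the 3 embryo libraries and 0 in all oocyte and sperm libraries. Its embryo mean of 413 ± 31.4 CPM (SD, n = 3), from 182, 262 and 333 reads, was at least 26.3-fold above oocytes and at least 156-fold above sperm. At the smallest oocyte total that level would have given 119 reads, far over the 5 that a listed 0 allows.

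In sperm the leading mir-6236 row was the one shared by 8 names, mmu-mir-6236-p5_1 and its companions. It stood at 340, 374 and 377 CPM in sperm, at 42.6, 46.0 and 38.3 CPM in embryos and at 0 in all 3 oocyte libraries. The sperm mean of 364 ± 20.4 CPM was 8.61-fold above the embryo mean of 42.3 ± 3.89 CPM and at least 23.2-fold above oocytes. The libraries of the 3 groups did not overlap. Against oocytes, the embryo level was at least 2.69-fold higher, a weaker bound because it would have given 12.2 reads at the smallest oocyte total. The fit put mmu-mir-6236-p5_1 at a log2 fold change of 3.23 ± 0.15 (SE) in sperm against embryos.

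A further 3 single-base variant names of the 5′ arm stood on the side of embryos. The row mmu-mir-6236-p5_1ss5CG had 157, 64.7 and 102 CPM in embryos, 3.66, 5.19 and 3.26 CPM in sperm and 0 in oocytes, so that the embryo mean of 108 ± 46.6 CPM was 26.8-fold above sperm and at least 6.89-fold above oocytes. The row mmu-mir-6236-p5_1ss15CG had 75.7, 105 and 67.4 CPM in embryos and 0 in the other 6 libraries, at least 5.27-fold above oocytes and at least 31.1-fold above sperm. The weakest, mmu-mir-6236-p5_1ss3CG, had 20.1, 10.1 and 16.2 CPM in embryos from 7 to 12.5 reads and 0 elsewhere, which is at least 5.82-fold above sperm and within the oocyte floor. In these 3 rows, too, no library of embryos overlapped with one of oocytes or sperm.

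The row of 6 names of the 3′ arm, mmu-mir-6236-p3_1, was the only mir-6236 row listed in an oocyte library, with 3.5 reads (9.17 CPM) in library 1 and 0 in the other two. It stood at 58.0, 45.3 and 80.4 CPM in embryos and 14.0, 16.4 and 21.0 CPM in sperm, and the listed values of the groups did not overlap. Against oocytes, embryos were at least 3.90-fold higher. Sperm was only at least 1.09-fold higher, about the level that a listed 0 allows in oocytes. The embryo mean of 61.2 ± 17.8 CPM was 3.57-fold above the sperm mean of 17.1 ± 3.53 CPM, with a fitted log2 fold change of -1.69 ± 0.45 (SE) in sperm against embryos.

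Expressed as shares of the mir-6236 reads of a library with each distinct row counted once, mmu-mir-6236-p5_1ss12CG made up 57.2 ± 2.03% in embryos and 0 in sperm. The mmu-mir-6236-p5_1 row made up 5.91 ± 1.04% in embryos and 94.5 ± 0.552% in sperm. The remaining embryo reads were divided among mmu-mir-6236-p5_1ss5CG with 14.7 ± 5.08%, mmu-mir-6236-p5_1ss15CG with 11.7 ± 3.93%, mmu-mir-6236-p3_1 with 8.43 ± 2.16% and mmu-mir-6236-p5_1ss3CG with 2.11 ± 0.512%. These shares depend on how shared reads are counted. With every listed row summed, mmu-mir-6236-p5_1ss12CG held 30.2 ± 0.287% and the mmu-mir-6236-p5_1 row 28.1 ± 4.83% in embryos, and the latter 96.9 ± 0.461% in sperm.

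The shares of the arms were compared with each distinct row counted once. With the row that belongs to both arms left out, the 3′ arm held 7.81, 7.53 and 11.5% of the single-arm mir-6236 reads in embryos and 79.3, 76.0 and 86.6% in sperm, though the sperm shares rest on only 29, 37.5 and 59.5 reads. The difference of the means was 71.7 percentage points (8.95 ± 2.22% against 80.6 ± 5.40%, n = 3 each), and the exact two-sided permutation test gave p = 0.1, the smallest p that 3 against 3 libraries allow, so the design cannot pass 0.05. The share is built from rows whose levels were known to differ, and the test supports nothing beyond that. With every listed row summed, the 3′ arm held 36.8 ± 6.12% in embryos and 96.1 ± 1.26% in sperm, a difference of 59.3 points.

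**Figure D3:**
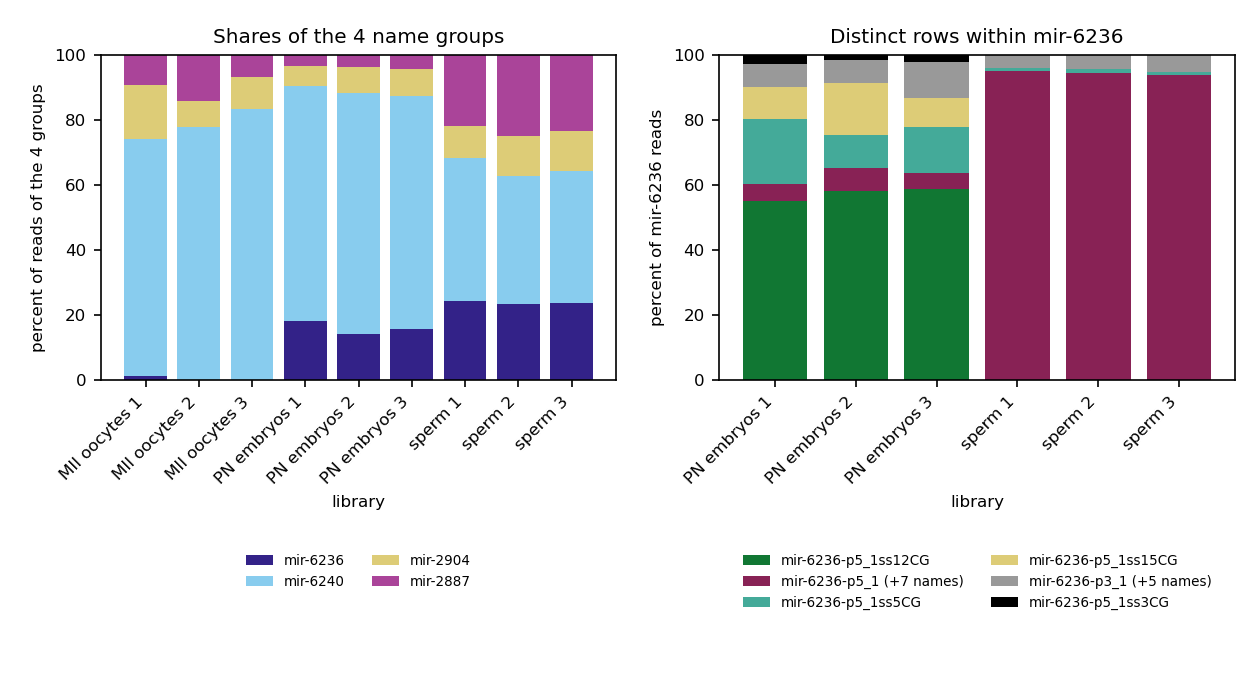
Left, percent of the reads of the 4 groups of names (vertical axis) held by each group in each of the 9 libraries (horizontal axis), with each distinct row counted once; right, counted in the same way, percent of mir-6236 reads held by each of its 6 distinct rows in the embryo and sperm libraries. In the right panel mmu-mir-6236-p5_1ss12CG fills 57.2% of the embryo bars on average and the mmu-mir-6236-p5_1 row 94.5% of the sperm bars.

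The mir-6240 rows, in contrast, kept the same leading row in all 3 groups. That row, mmu-mir-6240-p5_1 with 2 further names, stood at 489, 449 and 496 CPM in oocytes, 2182, 2472 and 2445 CPM in embryos and 546, 551 and 577 CPM in sperm. It held 81.7 ± 5.00% of the mir-6240 reads in oocytes, 71.2 ± 1.75% in embryos and 83.1 ± 0.367% in sperm. Its embryo mean of 2366 ± 160 CPM was 4.95-fold above the 478 ± 25.1 CPM of oocytes and 4.24-fold above the 558 ± 16.6 CPM of sperm, while sperm was 1.17-fold above oocytes. No library of one group overlapped with another group.

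The variant rows next in level made a steeper peak, the first of the same arm and the second without an arm in its name. The row mmu-mir-6240-p5_1ss19GT had 48.5, 28.4 and 74.3 CPM in oocytes, 406, 366 and 399 CPM in embryos and 70.4, 74.4 and 75.8 CPM in sperm, a 7.74-fold difference between embryos and oocytes and a 5.31-fold one between embryos and sperm. The row mmu-miR-6240_L-1R-4_1ss21AG had 34.1, 23.4 and 58.8 CPM in oocytes, 282, 276 and 302 CPM in embryos and 28.0, 27.7 and 26.5 CPM in sperm, with embryos 7.40-fold above oocytes and 10.5-fold above sperm. In both rows the oocyte and sperm libraries overlapped and the embryo libraries stood apart from either. The fit gave log2 fold changes of 2.24 ± 0.07 (SE) for mmu-mir-6240-p5_1, 2.90 ± 0.24 for mmu-mir-6240-p5_1ss19GT and 2.83 ± 0.24 for mmu-miR-6240_L-1R-4_1ss21AG in embryos against oocytes.

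One mir-6240 row was listed in embryos alone. This was mmu-mir-6240-p5_1ss1GA, with 173, 173 and 198 CPM from 73, 120 and 153 reads, and 0 in all 6 oocyte and sperm libraries. Its mean of 181 ± 14.9 CPM was at least 11.5-fold above oocytes and at least 68.2-fold above sperm. Like mmu-mir-6236-p5_1ss12CG, it is a variant name of an arm whose plain name was listed in every sperm and every embryo library. In oocytes, mmu-mir-6240-p5_1 was listed in every library and mmu-mir-6236-p5_1 in none.

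The row mmu-miR-6240_L-2R-6 rested on single libraries outside embryos. It had 39.3 CPM (15 reads) in oocyte library 1 and 0 in the other two, 35.5, 20.1 and 36.3 CPM in embryos and 2.44 CPM in sperm library 3 alone. Oocytes and embryos overlapped, and the call of this name as lower in sperm than in oocytes was lost without oocyte library 1, embryo library 1, sperm library 1 or sperm library 2. The other 4 rows, mmu-mir-6240-p3, mmu-mir-6240-p5_1ss14GT, mmu-mir-6240-p5_1ss2GA and mmu-mir-6240-p3_1ss19GA, were low, with at most 46.0 CPM in any library.

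The mir-2904 rows were led by bta-miR-2904_L-5R+4, with 115, 16.7 and 24.2 CPM in oocytes, 159, 230 and 269 CPM in embryos and 57.3, 82.5 and 101 CPM in sperm. Embryos stood above both other groups without overlap, 4.21-fold above oocytes and 2.73-fold above sperm. Oocyte library 1 set the oocyte level, and without it embryos were 10.7-fold and sperm 3.93-fold above oocytes instead of 4.21-fold and 1.54-fold.

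The row bta-mir-2904-3-p5_1ss20TC had 0, 16.7 and 41.5 CPM in oocytes, 68.6, 93.5 and 85.6 CPM in embryos and 81.7, 122 and 97.3 CPM in sperm. Embryos and sperm overlapped, and each was above oocytes, 4.26-fold and 5.18-fold, or 9.88-fold and 12.0-fold without oocyte library 3. In the fit its log2 fold change in embryos against oocytes was 2.15 ± 0.60 (SE). That call was lost without oocyte library 2, embryo library 2 or sperm library 2, and that of bta-miR-2904_L-5R+4 was lost without oocyte library 2. The call of bta-miR-2904_L-5R+4 as lower in sperm than in embryos was lost without embryo library 3, sperm library 1 or sperm library 2.

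The 2 shared rows of mir-2904 went different ways. The 7 names of the bta-mir-2904-3-p5_1 row had 11.8, 18.4 and 10.4 CPM in oocytes, 8.28, 20.1 and 11.7 CPM in embryos and 1.83, 4.62 and 7.54 CPM in sperm, so that oocytes and embryos overlapped and sperm was below either. Of these 7 names only bta-mir-2904-3-p5_3 passed the filter, because it stood in 2 rows whose counts were added, and its call as lower in sperm than in oocytes was lost in 7 of the 9 fits that left out a library each, all but those without embryo library 2 or sperm library 3. Its call as lower in sperm than in embryos was lost in 6 of the 9. The 5 names of the bta-mir-2904-3-p3_2 row had 0 in oocytes, 28.4, 20.9 and 35.7 CPM in embryos and 2.44, 2.31 and 3.87 CPM in sperm, with embryos 9.86-fold above sperm. The last row, bta-mir-2904-3-p3_1ss19TA, held 5 reads in oocyte library 1 and nothing else, and 9 rows of other names held the same counts.

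Both mir-2887 rows were highest in sperm. The row bta-mir-2887-2-p5 had 76.0, 76.9 and 51.9 CPM in oocytes, 125, 132 and 178 CPM in embryos and 249, 341 and 316 CPM in sperm, with sperm 2.08-fold above embryos and 4.42-fold above oocytes and embryos 2.13-fold above oocytes. The fit gave it log2 fold changes of 1.02 ± 0.26 (SE) in embryos against oocytes, just over the limit of 1 that a call needed, and 1.17 ± 0.18 in sperm against embryos. Its call in embryos was lost without oocyte library 3 or without embryo library 3, with the DESeq2 test, with the size factors of DESeq2, with a filter of 10 counts in 3 libraries, with only the 2 groups compared and with a replicate block. The row bta-mir-2887-2-p3_1ss20CT had 0, 16.7 and 0 CPM in oocytes, 18.9, 38.8 and 19.5 CPM in embryos and 75.0, 79.0 and 79.8 CPM in sperm, 3.03-fold above embryos. In both rows the libraries of the 3 groups did not overlap.

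**Figure D4:**
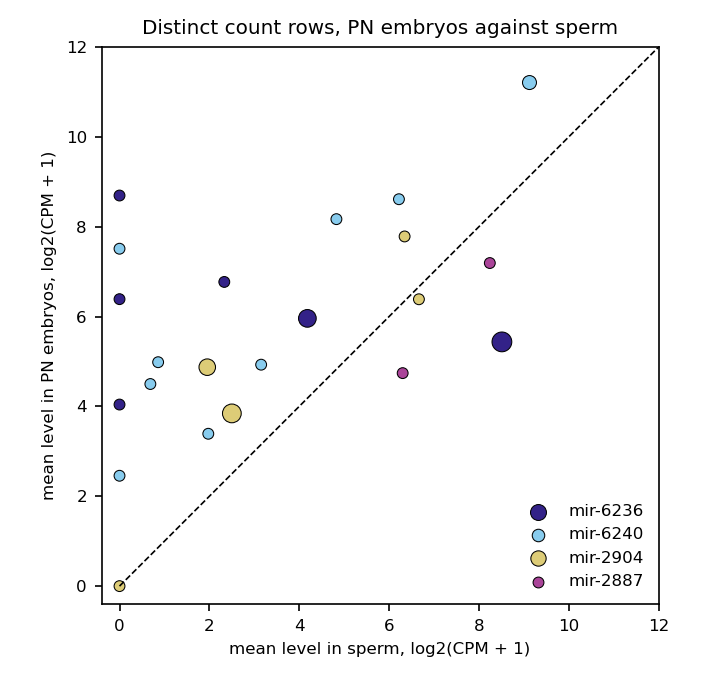
Mean level of each of the 22 distinct rows in sperm (horizontal axis) and in PN embryos (vertical axis), both as log2(CPM + 1), with colour for the group of names, larger points for rows carried by more names and a dashed line at equal levels. The 3 rows well below the line are both mir-2887 rows and the mmu-mir-6236-p5_1 row, and points on the left edge are rows listed at 0 in sperm.

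Seen as a mixture with each distinct row counted once, the 4 groups of names had different proportions in each sample group. With every listed row summed, mir-6236 would lead in sperm instead of mir-6240. The mir-6240 rows held 78.1 ± 5.13% of the reads in oocytes, 72.9 ± 1.11% in embryos and 41.4 ± 2.53% in sperm (SD, n = 3). The mir-2887 rows held 10.0 ± 3.79%, 3.74 ± 0.401% and 23.3 ± 1.47%, and the mir-2904 rows 11.5 ± 4.67%, 7.50 ± 1.24% and 11.5 ± 1.58%. The share of mir-6240 was lowest and that of mir-2887 highest in sperm.

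The share of mir-6236 was 18.1, 14.2 and 15.4% in embryos and 24.2, 23.4 and 23.6% in sperm, without overlap. In oocyte library 1 it was 1.10% (95% Wilson interval 0.489 to 3.18%), and in libraries 2 and 3, where no read was listed, the intervals reached 1.90 and 1.70%. The sperm mean was 7.83 percentage points above the embryo mean, and the exact two-sided permutation test gave p = 0.1, again the smallest that this design allows. This share, too, is built from names chosen on earlier results of these libraries, and the test adds nothing to the lack of overlap. The size of this difference rests on counting each distinct row once: it was 18.4 points with 1 name for each set of proportional counts and 42.4 points with all names summed.

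Among marker miRNAs of other cell types, those of red blood cells moved in the same way as the mir-6240 rows. Their sum (miR-451 and miR-144, both listed) was 83.0 to 157 CPM in oocytes, 641 to 690 CPM in embryos and 44.4 to 110 CPM in sperm. In means, miR-451 stood at 102, 509 and 73.4 CPM and miR-144 at 24.3, 154 and 5.97 CPM in oocytes, embryos and sperm. The part of blood RNA in the levels of the names described here was not tested. The markers of white blood cells (miR-223 and miR-142) summed to 0 to 60.2, 47.3 to 53.2 and 99.2 to 109 CPM in the 3 groups, those of smooth muscle and stroma (miR-143 and miR-145) to 86.5 to 111, 67.4 to 82.8 and 29.9 to 38.1 CPM, and the liver marker miR-122 to 879 to 980, 201 to 246 and 2026 to 2067 CPM. The skeletal muscle markers miR-206 and miR-133 summed to 39.3 to 53.5, 0 and 9.78 to 17.1 CPM, and the neural markers miR-124 and miR-9 to 522 to 901, 278 to 351 and 9193 to 9501 CPM. As sums, none of these 5 lists was highest in embryos, but their markers did not all move together. In means, miR-223 stood at 0, 15.5 and 11.8 CPM in oocytes, embryos and sperm. That embryo level lay within what a listed 0 allows in oocytes. The mean of miR-145 was also highest in embryos, at 17.8 CPM. Of the muscle markers, miR-206 was highest in sperm and miR-133 in oocytes. Of the neural markers, miR-124 was highest in oocytes and miR-9 in sperm.

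Across the 9 libraries, the summed level of each group of names was set beside every other name with a mean of at least 10 CPM, 497 names in all, by Pearson's r on log2(CPM + 1). The libraries share depth and group, so these values only describe the likeness of patterns. For mir-6240 the most alike were PC-5p-8558_472 and PC-3p-53924_60, both with r = 0.995, and PC-5p-41941_81 with r = 0.994, all 3 listed at 0 in oocytes and sperm. For mir-6236 they were bta-miR-11987_L-1_1ss8TA with r = 0.948, PC-5p-17700_209 with r = 0.934 and cja-miR-151_R+1_2 with r = 0.932, each listed at 0 in oocytes.

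For mir-2904 the nearest names were mmu-miR-6238_L-1R-2_1ss12TC with r = 0.886, cgr-miR-1260_1ss18AT with r = 0.869 and ssc-miR-935_L-1 with r = 0.866. For mir-2887 they were bta-miR-11987_L-2_1ss8TA with r = 0.963, ssc-let-7d-5p with r = 0.958 and ssc-miR-23a_R+1 with r = 0.956. Among the 4 groups themselves the values were 0.906 for mir-6236 with mir-2904, 0.795 for mir-6240 with mir-2904, 0.784 for mir-6236 with mir-2887, 0.624 for mir-6236 with mir-6240, 0.529 for mir-2904 with mir-2887 and 0.0783 for mir-6240 with mir-2887. The last pair had the least alike patterns, with an embryo peak in one and a sperm peak in the other.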

How the data were processed

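Small RNA of 9 pig libraries (3 each of MII oocytes, PN embryos and sperm) was compared, with groups taken from the sample titles. The authors deposited estimated counts for each named small RNA, raw per the file headers, with fractions where reads were divided among names. The authors ligated adapters to both RNA ends, reverse transcribed, amplified by PCR and size-selected on a gel. Per the labels the genome build was Sscrofa 11.1; aligner, miRNA caller, miRNA reference and count filter are not given in the sources used here. No further columns of sample values were present.

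The names, comparison lists and tests were chosen with earlier results of these data known. Counts were rounded and fitted on all names with edgeR 4.0.16 in R 4.3.3 (quasi-likelihood test, TMM, filterByExpr with a minimum count of 10, group as the factor, rows of the same name summed), as the study's methods name edgeR with these thresholds; the procedure was tested on simulated data. CPM, shares and exact permutation tests used Python 3.11.15, pandas 2.3.3 and scipy 1.17.1. The rows named are up to 10 for mir-6236 and up to 4 for each other group by mean CPM, those listed in all 9 libraries and those called against the main direction. Replicates of a group differed beyond sampling noise (chi-square per degree of freedom 2.20 to 12.7), so none was merged. Alternatives were DESeq2 1.42.0, other scalings, filters and thresholds, a replicate block, merged names and leaving out each library.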

Additional observations from a re-analysis of the deposited data

How the results depend on the processing

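With names of identical counts merged into 1 feature, 20 features of these names were tested in place of 36 names, among 555 in all. In embryos against oocytes, 15 of the 20 were called higher (31 of 36 names), beside 56 of all 555. In sperm against oocytes, 8 were called higher and 1 lower (23 and 2 names), beside 230 and 226 of all 555. In sperm against embryos, 4 were called higher and 15 lower (10 and 25 names), beside 215 and 261 of all 555. The 2 lower in sperm than in oocytes were 1 with the DESeq2 Wald test, without a filter or with only the 2 groups compared. Leaving out each library in turn gave 30 to 32 and 10 to 10 names called higher in embryos against oocytes and in sperm against embryos, 12 to 23 higher and 0 to 2 lower in sperm against oocytes, and 16 to 26 lower in sperm against embryos.

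Same-numbered libraries did not deviate together (mean r -0.04, -0.11 and 0.02 in the 3 contrasts, with 0, 0 and 1 of 3 libraries nearest to their own number). No pairing by number was thus seen, but with 3 libraries in each group one could have been missed. The fit with a replicate block gave 12 instead of 23 names higher and 0 instead of 2 lower in sperm than in oocytes.

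The mir-6236 log2 ratio of sperm to embryos, -0.91 as reported, was 1.31 with all names summed and -0.031 with 1 name per set of proportional counts, where rows of the same name are added; leaving out libraries gave -0.98 to -0.85. Its log2 ratios over oocytes, with the floor of 5 reads set on the sum, were 5.53 for embryos and 4.62 for sperm. With all names summed, the 3.5 reads of oocyte library 1 count once for each of 6 names, and plain ratios of 6.22 and 7.53 took their place. With 1 name per set and the floor on the sum, the sperm value was 5.58. The mir-6240 ratio of sperm to embryos moved from -2.31 to -2.15 with all names, -2.21 with 1 name per set and -2.18 with TMM-scaled totals. The mir-2904 ratio of sperm to oocytes went from 1.08 to 0.34 with all names summed. Over all settings, 87 of 108 counts stayed within 1.5 times the reported count, and 100 of 108 log2 ratios moved by less than the SD between libraries. Oocyte depth limits rows under about 17.3 CPM.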
